A study of Mus musculus with 16 samples.

Results

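The 10 genes described here encode proteins of cell-cell junctions and markers and regulators of the epithelial-mesenchymal transition (EMT): the cadherins Cdh1, Cdh2 and Cdh26, the claudins Cldn1 and Cldn4, occludin (Ocln), the epithelial adhesion molecule Epcam, the intermediate filament vimentin (Vim) and the transcription factors Zeb1 and Snai2. They were taken by gene symbol from the 54532 genes of the deposited count table. They had been selected on their role in junctions and EMT and with their counts in MSI and CIN tumours already known, so the difference between those tumours is given for them as a description without a test. All 10 passed the filter on low counts that left 18777 genes for testing.

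The libraries came from tumours of MC38, a colon carcinoma line of the C57BL/6 mouse strain, injected into the wall of the descending colon of C57BL/6 mice either as its MSI derivative, for microsatellite instability, or as its CIN derivative, for chromosomal instability. Every mouse also received bone marrow derived dendritic cells into the abdominal cavity on days 1, 6 and 12, after a 30 min exposure of those cells to 2 µg of DNA with a cationic lipid reagent, and tumours were collected on day 15. The DNA was MSI or CIN in source and was given as free cytosolic DNA or as micronuclei, small membrane-bound structures with pieces of chromosomes, separate from the cell's nucleus. Tumour line, DNA source and DNA form made 8 groups of 2 libraries, named below by tumour, DNA and replicate number. All 8 groups share the host strain, the dendritic cells and the transfection reagent, and mice given unstimulated dendritic cells were not analysed here. The sources used here name 1 MSI and 1 CIN derivative, so instability and any other trait of a derivative cannot be told apart. RNA of 3 biological replicates was pooled in equal parts for sequencing, and whether the libraries of a group are separate pools is not stated. The p-values therefore measure the spread between libraries, part of which may be technical.

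Cadherins join neighbouring cells through calcium-dependent contacts, and E-cadherin, the product of Cdh1, anchors the belt-like adherens junction of gut epithelium. Claudins and occludin form the strands of the tight junction, which seals the space between epithelial cells. During EMT, transcription factors of the Zeb and Snail families bind E-box sequences in promoters such as that of Cdh1 and repress them, and N-cadherin (Cdh2) and vimentin are read as mesenchymal markers.

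The RefSeq promoter table for GRCm38.p6 held 6 of the 10 genes (Cdh26, Cldn1, Cldn4, Ocln, Epcam and Vim) at 7 start sites, and 5 of these windows are printed, for genes described most fully below. Each runs 5′ to 3′ on the strand of the gene over the 250 bases before the start site, and capitals mark an exact CACCTG or its reverse complement CAGGTG, the E-box letters searched. Epcam, Cldn4 and Ocln are printed as genes that moved together across libraries, and Cdh26 and Cldn1 as those that differed most between the tumour types. The letters of these windows were not related to the levels. The windows are chr17:87635729-87635978 (plus strand) for Epcam, chr5:134946935-134947184 (minus strand) for Cldn4, chr13:100552719-100552968 (minus strand) for the first Ocln site, chr2:178430265-178430514 (plus strand) for Cdh26 and chr16:26371840-26372089 (minus strand) for Cldn1.
Epcam: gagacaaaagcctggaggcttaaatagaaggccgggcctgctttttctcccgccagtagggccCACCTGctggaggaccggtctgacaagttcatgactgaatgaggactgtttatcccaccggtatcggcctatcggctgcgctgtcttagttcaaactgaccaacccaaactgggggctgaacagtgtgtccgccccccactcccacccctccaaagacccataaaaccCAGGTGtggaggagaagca
Cldn4: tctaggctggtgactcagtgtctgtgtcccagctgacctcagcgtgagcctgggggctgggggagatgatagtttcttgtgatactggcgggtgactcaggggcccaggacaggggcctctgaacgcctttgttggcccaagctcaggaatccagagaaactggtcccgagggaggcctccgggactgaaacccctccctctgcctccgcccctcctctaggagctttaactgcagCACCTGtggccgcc
Ocln: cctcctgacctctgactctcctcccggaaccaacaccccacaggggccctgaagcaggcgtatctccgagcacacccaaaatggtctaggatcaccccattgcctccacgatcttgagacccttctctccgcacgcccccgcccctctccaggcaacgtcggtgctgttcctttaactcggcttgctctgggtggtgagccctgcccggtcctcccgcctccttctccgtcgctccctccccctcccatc
Cdh26: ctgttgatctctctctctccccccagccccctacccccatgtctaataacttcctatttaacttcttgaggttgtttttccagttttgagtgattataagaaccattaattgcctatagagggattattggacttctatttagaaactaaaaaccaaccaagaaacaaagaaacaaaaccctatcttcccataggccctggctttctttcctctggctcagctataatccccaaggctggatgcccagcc
Cldn1: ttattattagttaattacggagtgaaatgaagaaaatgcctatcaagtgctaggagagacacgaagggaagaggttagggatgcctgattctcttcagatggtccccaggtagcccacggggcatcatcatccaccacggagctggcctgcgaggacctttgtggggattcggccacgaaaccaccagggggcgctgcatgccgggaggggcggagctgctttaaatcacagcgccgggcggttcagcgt

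The E-box letters stood at 187 and 19 bases before the start site of Epcam (positions -187 and -19 are those of the first letter) and at -14 in Cldn4. They were also in the window of the second Ocln start site, at -213 and -68, which overlaps the transcript in the deposited coordinates and is not printed. The windows of Cdh26, Cldn1, Vim and the first Ocln site did not hold them. Thus 3 of the 7 start sites held the letters, against 17.2% of 32851 promoter windows of the same length. The Cdh26 window had 0 CpG dinucleotides and a GC content of 42.8%, whereas the median window had 6 and 52.4%. These matches are of letters only, and binding was not measured.

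In the deposited coordinates, which are those of GRCm38, Cdh1 (ENSMUSG00000000303) lies at chr8:106603351-106670246 on the plus strand and Cdh2 (ENSMUSG00000024304) at chr18:16588877-16809246 on the minus strand. Cdh26 (ENSMUSG00000039155) lies at chr2:178430531-178487366 on the plus strand. Cldn1 (ENSMUSG00000022512) lies at chr16:26356642-26371841, Cldn4 (ENSMUSG00000047501) at chr5:134945119-134946934 and Ocln (ENSMUSG00000021638) at chr13:100496507-100552718, all on the minus strand. Epcam (ENSMUSG00000045394) lies at chr17:87635979-87651106, Vim (ENSMUSG00000026728) at chr2:13573927-13582826, Zeb1 (ENSMUSG00000024238) at chr18:5591860-5775467 and Snai2 (ENSMUSG00000022676) at chr16:14705852-14709385, all on the plus strand. Counts were of whole genes, without exon or isoform. Zeb1 overlaps the opposite-strand genes Gm10125, with 538 counts over all libraries, and Gm16147, with 6. The sources used here do not give the strand setting, so reads of Zeb1 and of those genes cannot be told apart.

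Library totals ran from 11561955 to 17937501 counts. The libraries differed widely in transcripts that mark colon epithelium. The colon epithelium level is here the mean log2 CPM of 19 markers such as Muc2 and Car1, which include none of the 10 genes. CPM are counts relative to the library total, scaled by the TMM method. The level ran from 4.55 to 9.12 in MSI and from 2.54 to 8.59 in CIN tumours. The lowest library by that measure was CIN tumour MSI micronuclei 1, where the marker Cdx2 had no count. Transcripts of skeletal muscle stood high in 5 libraries (among MSI tumours CIN micronuclei 1, and among CIN tumours MSI micronuclei 1 and 2, CIN free 2 and MSI free 2). In such bulk samples, fewer cells of a type and less RNA per cell cannot be told apart. Whether the colon epithelium transcripts came from host tissue or from tumour cells was not tested.

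The epithelial genes Cdh1, Epcam, Cldn4 and Ocln varied more between libraries of 1 tumour type than between the tumour types. Cdh1 in MSI tumours ran from 52.6 CPM through a median of 459 to 953 CPM, and in CIN tumours from 19.6 through 258 to 512 CPM. By group, the MSI tumour pairs were 307 and 610.0 CPM with MSI micronuclei, 52.6 and 953 with CIN micronuclei, 253 and 911 with MSI free DNA, and 102 and 856 with CIN free DNA. The CIN tumour pairs were 19.6 and 300.1 CPM with MSI micronuclei, 392 and 512 with CIN micronuclei, 478 and 216 with MSI free DNA, and 209 and 194 with CIN free DNA. The ranges overlapped, the 4 highest libraries were the MSI tumours numbered 2, and CIN tumour MSI micronuclei 1 was the lowest. The fitted difference, as log2 fold change of MSI minus CIN tumours, was 0.92 ± 0.71 (SE).

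Epcam, a surface glycoprotein of epithelia and carcinomas, followed nearly the same order of libraries. Its level ran from 67.8 CPM through a median of 586 to 1366 CPM in MSI tumours and from 12.7 through 312 to 720.1 CPM in CIN tumours. The top 3 libraries were MSI tumours given CIN micronuclei (1366 CPM), MSI free DNA (1259 CPM) and CIN free DNA (1216 CPM), each numbered 2, and their partners numbered 1 had 67.8, 302 and 113 CPM. The tumour types overlapped, with a log2 fold change of 1.03 ± 0.78 (SE).

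Cldn4, a claudin of simple epithelia that interacts with the toxin of Clostridium perfringens, had 2.68, 21.6 and 48.1 CPM as lowest, median and highest MSI tumour values. In CIN tumours these were 0.0885, 19.5 and 46.3 CPM, and the lowest, CIN tumour MSI micronuclei 1, rested on 1 count. The next lowest CIN library, CIN free 2, had 10.5 CPM, and the log2 fold change between the tumour types was 0.32 ± 0.83 (SE). Ocln, the tight junction strand protein, ran from 4.92 through 51.6 to 119 CPM in MSI and from 1.33 through 26.3 to 54.4 CPM in CIN tumours, with a log2 fold change of 1.16 ± 0.79 (SE). For both genes the libraries of the tumour types overlapped, and the lowest library was again CIN tumour MSI micronuclei 1.

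**Figure D1:**
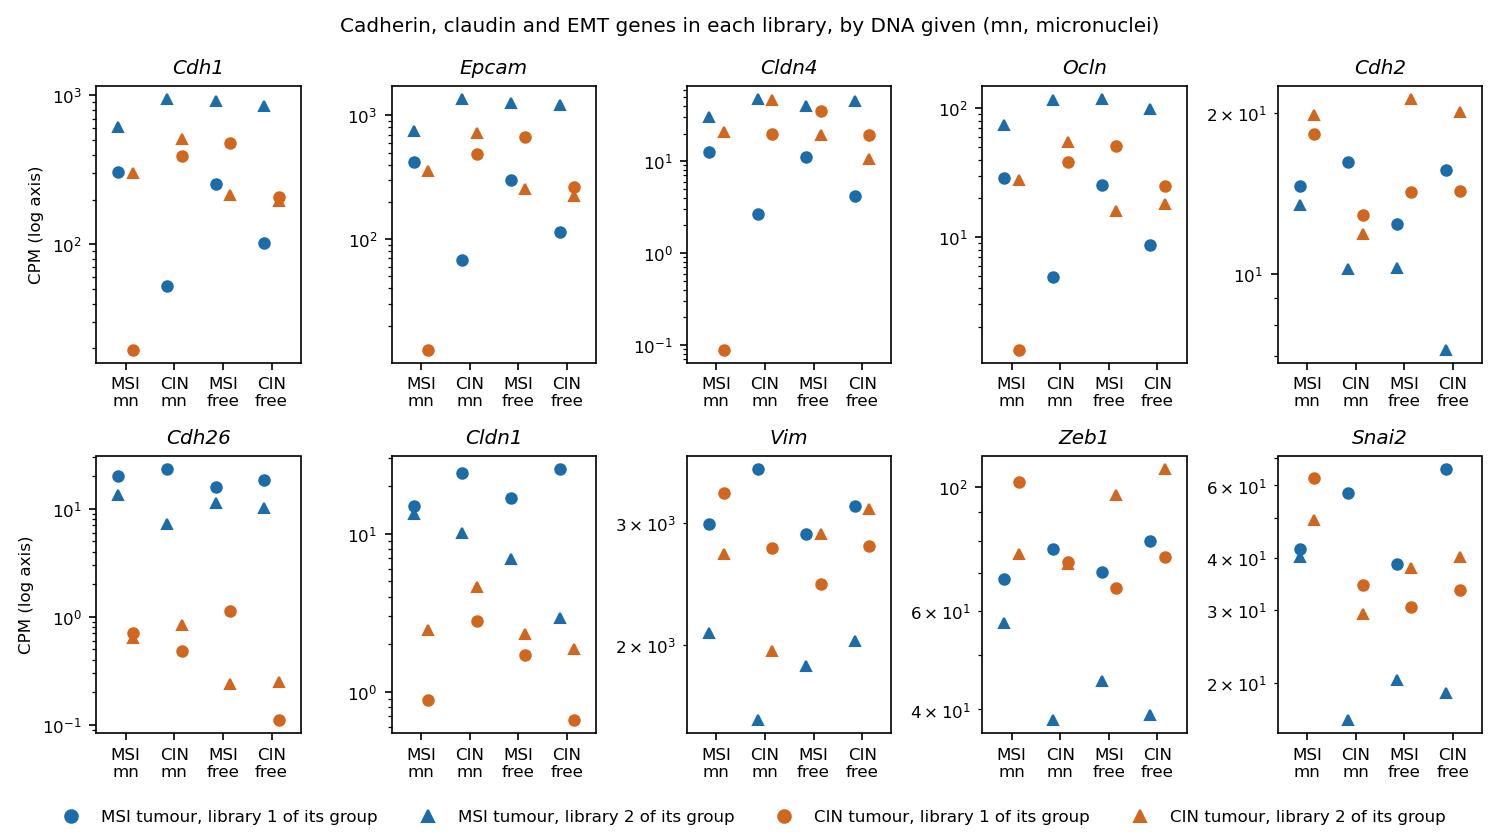
CPM of each gene (log axis) in the 16 libraries, by the DNA given to the dendritic cells; blue points are MSI and orange points CIN tumours, with circles for the libraries numbered 1 and triangles for those numbered 2. Cdh26 separates the tumour types in every column, from 7.28 to 23.3 CPM against 0.109 to 1.12 CPM, whereas Cdh1, Epcam, Cldn4 and Ocln spread over both.

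Cdh26 was the 1 member whose libraries did not overlap between the tumour types. It encodes a cadherin of epithelial cells that has been studied in allergic inflammation of the upper gut. The MSI tumour pairs were 20.2 and 13.4 CPM with MSI micronuclei, 23.3 and 7.28 with CIN micronuclei, 15.9 and 11.3 with MSI free DNA, and 18.6 and 10.1 with CIN free DNA. The CIN tumour pairs were 0.708 and 0.638 CPM with MSI micronuclei, 0.481 and 0.829 with CIN micronuclei, 1.12 and 0.237 with MSI free DNA, and 0.109 and 0.248 with CIN free DNA. Every MSI library was therefore above every CIN library, as for 1.23% of all tested genes (3.11% did not overlap in either direction), and nothing is read from it. The means were 15.0 ± 5.5 CPM in MSI and 0.546 ± 0.343 CPM in CIN tumours (SD, n = 8 each), and the log2 fold change was 4.94 ± 0.40 (SE), a 30.7-fold difference. The CIN values rest on 60 counts in all, 2 to 15 a library, against 1767 in MSI tumours.

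Cldn1, a claudin that is needed for the barrier of the epidermis, had the second largest difference of the 10 genes between the tumour types. Its MSI tumour pairs were 15.0 and 13.3 CPM with MSI micronuclei, 24.2 and 10.1 with CIN micronuclei, 17.0 and 6.91 with MSI free DNA, and 25.7 and 2.93 with CIN free DNA. In CIN tumours the pairs were 0.885 and 2.47 CPM, 2.81 and 4.59 CPM, 1.72 and 2.31 CPM, and 0.656 and 1.86 CPM in the same order of DNA. Within each DNA treatment the MSI pair was above the CIN pair, but over all libraries the MSI tumour CIN free 2 library, at 2.93 CPM, lay below the CIN tumour CIN micronuclei 2 library, at 4.59 CPM. The means were 14.4 ± 7.9 CPM in MSI and 2.16 ± 1.23 CPM in CIN tumours (SD, n = 8 each), and the log2 fold change was 2.83 ± 0.48 (SE), a 7.13-fold difference. Without the 5 libraries rich in muscle transcripts, in a model that adds the effects of tumour, DNA source and DNA form, it was 2.61 ± 0.70 (SE), and Cdh26 was at 4.31 ± 0.52 (SE).

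On the mesenchymal side of the set, all 4 genes overlapped between the tumour types. Cdh2, the N-cadherin gene, ran from 7.20 through 12.9 to 16.2 CPM in MSI and from 11.9 through 16.3 to 21.3 CPM in CIN tumours, with a log2 fold change of -0.40 ± 0.18 (SE). Vim, the most abundant of the 10 per length, ran from 1555 through 2488 to 3588 CPM in MSI and from 1959.8 through 2771 to 3316 CPM in CIN tumours, with a log2 fold change of -0.12 ± 0.19 (SE). Both overlapped, and Vim was lowest and highest in MSI tumours given CIN micronuclei, numbered 2 and 1.

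Zeb1, a zinc finger repressor of epithelial genes, ran from 38.2 through 62.7 to 79.9 CPM in MSI and from 65.8 through 75.3 to 107 CPM in CIN tumours. The MSI pairs were 68.3 and 57.1 CPM with MSI micronuclei, 77.4 and 38.2 with CIN micronuclei, 70.4 and 44.9 with MSI free DNA, and 79.9 and 39.1 with CIN free DNA, and the CIN pairs were 102 and 75.8, 73.3 and 72.8, 65.8 and 96.6, and 74.8 and 107 CPM. All 4 CIN group means were above all 4 MSI group means, while single libraries overlapped (log2 fold change -0.49 ± 0.20, SE). Snai2, which encodes the repressor Slug, ran from 16.2 through 39.5 to 65.7 CPM in MSI and from 29.3 through 36.1 to 62.6 CPM in CIN tumours, with a log2 fold change of -0.06 ± 0.30 (SE). Its 3 lowest libraries, at 16.2 to 20.3 CPM, were all MSI tumours numbered 2.

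Across the 10 genes 6 differences were above 0 and 4 below, with a median of 0.62 against 0.06 for all tested genes. The count past the threshold was 2 of 10 against a background of 5.80% (1089 of 18777 genes, 2.32% higher and 3.48% lower in MSI tumours). With a replicate term for each tumour type 3428 genes passed. Nothing is read from that count, since the genes were picked with the contrast known. With the colon epithelium level as a covariate in the additive model, Cdh26 was at 4.87 ± 0.32 (SE) and Cldn1 at 2.72 ± 0.41 (SE). Zeb1 was at -0.42 ± 0.12 (SE) there.

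**Figure D2:**
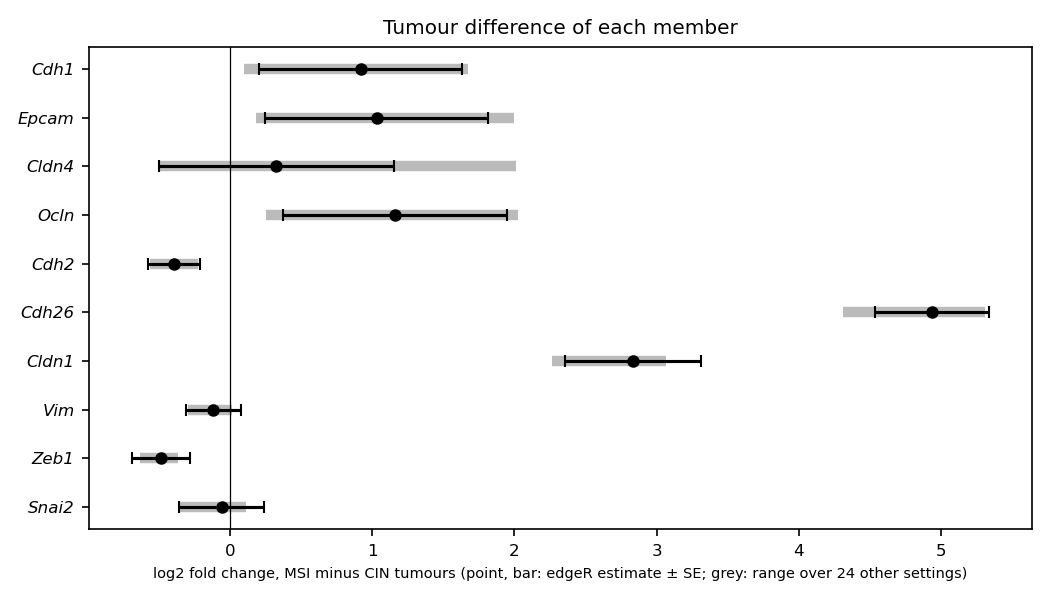
Log2 fold change of MSI minus CIN tumours for each gene, with points and bars for the edgeR estimate ± SE and grey bands for the range over the 24 other settings. Cdh26 (4.94), Cldn1 (2.83), Cdh1, Epcam and Ocln lie above 0 over their whole bands, and Cdh2 and Zeb1 below 0. The bands of Cldn4, Vim and Snai2 cross 0. Bands span estimates only, without their SE.

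In the order of the 8 group means, neighbouring groups mostly overlapped in their libraries. For Cdh26 the order broke between the lowest MSI group (MSI free DNA, 13.6 CPM) and the highest CIN group (MSI free DNA, 0.678 CPM), and again above the CIN tumours given CIN free DNA (0.179 CPM). Cldn1 broke between the MSI tumours given MSI free DNA (11.9 CPM) and the CIN tumours given CIN micronuclei (3.70 CPM), and between the latter and the CIN tumours given MSI free DNA (2.01 CPM). Zeb1 broke only between the lowest CIN group, given CIN micronuclei (73.0 CPM), and the highest MSI group, given MSI micronuclei (62.7 CPM). Cdh1 broke between the CIN tumours given MSI free DNA (347 CPM) and those given CIN free DNA (202 CPM), and for Cdh2, Cldn4, Ocln, Epcam, Vim and Snai2 all neighbours overlapped. With 2 libraries a group these breaks carry no test.

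Levels of different genes can be set side by side only per length, in FPKM (fragments per unit of gene length, scaled to the library total). By the median over the 8 MSI tumour libraries Vim stood first at 532 FPKM, followed by Epcam at 288 and Cdh1 at 101 FPKM. Snai2 (19.6), Ocln (12.3), Cldn4 (11.9), Zeb1 (6.09), Cdh26 (4.88) and Cldn1 (2.92 FPKM) came next, and Cdh2 was lowest at 1.61 FPKM. In CIN tumours Vim (578), Epcam (148) and Cdh1 (54.5 FPKM) again led, followed by Snai2 (17.6), Cldn4 (10.6), Zeb1 (7.15) and Ocln (6.06 FPKM). There Cdh2, at 1.95 FPKM, stood above Cldn1 (0.415) and Cdh26 (0.182 FPKM), the reverse of their order in MSI tumours. The place of Epcam varied most among the abundant genes, from 5.87 to 718 FPKM, while Vim stayed between 351 and 699 FPKM.

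The ratios within a library showed how far the junction genes shifted against each other. Cdh1 exceeded Cdh2 in FPKM in every library, by 1.88 times in CIN tumour MSI micronuclei 1 and by 209.7 times in MSI tumour CIN free 2. Cdh26 was above Cdh2 in all 8 MSI libraries, by 1.91 to 3.85 times, and below it in all 8 CIN libraries. Cldn4 was below Cldn1 in FPKM in 3 libraries, namely MSI tumour CIN micronuclei 1 (ratio 0.295), MSI tumour CIN free 1 (0.430) and CIN tumour MSI micronuclei 1, where Cldn4 had the single count given above. Epcam exceeded Vim only in the MSI tumours numbered 2 that were given CIN micronuclei (2.04 times), MSI free DNA (1.57 times) and CIN free DNA (1.40 times).

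**Figure D3:**
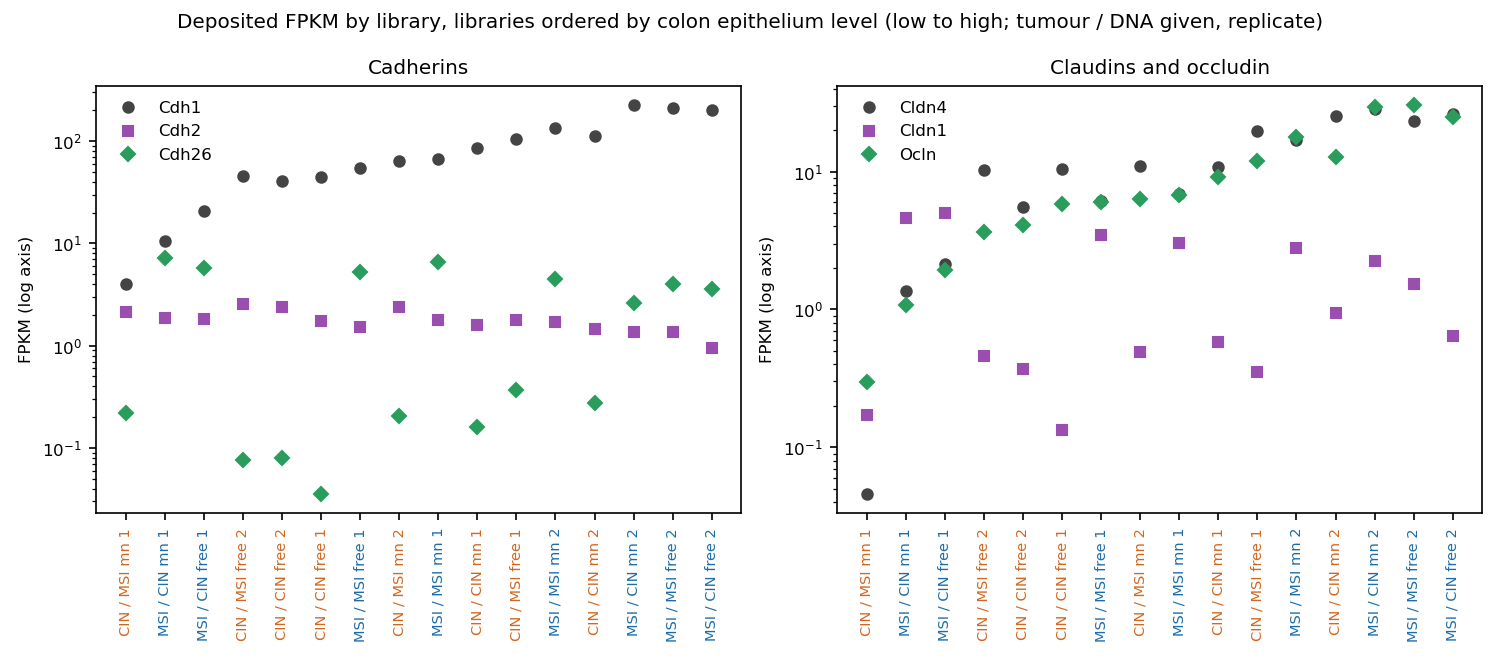
Deposited FPKM (log axis) of the cadherins (left) and of the claudins and occludin (right) in the 16 libraries, ordered from the lowest to the highest colon epithelium level; library names are blue for MSI and orange for CIN tumours. Cdh1, Cldn4 and Ocln climb from left to right, Cdh2 stays between 0.952 and 2.55 FPKM, and Cdh26 and Cldn1 step up and down with the tumour type.

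In MSI tumours 4 of the 10 genes rose and 6 fell with the colon epithelium level, and in CIN tumours 4 rose and 2 fell by Pearson's r. For each tumour type, 45 pairs of members and 10 relations to that level were computed over 8 libraries, 110 relations in all. Of these, 73 had a Benjamini-Hochberg adjusted exact permutation p (two-sided, Pearson) under 0.05, 53 in MSI and 20 in CIN tumours. By Spearman's rho the numbers were 55 and 30. The pairs share libraries, so the relations are not independent of each other. The permutations treat the libraries of a tumour type as exchangeable, which the split of MSI tumours by replicate number, given below, does not bear out. The share of all tested genes that follow this level was not computed, so the counts are not read as a trait of these 10 genes.

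In MSI tumours Cdh1, Epcam, Cldn4 and Ocln rose with the colon epithelium level. For Cdh1, Pearson's r was 0.997 (exact permutation p = 1.49e-04, adjusted 0.00117) and Spearman's rho 0.905 (exact permutation p = 0.00456, adjusted 0.00947), with r = 0.992 without the 2 libraries farthest from the median. For Epcam, Ocln and Cldn4 r was 0.993, 0.993 and 0.990, rho 0.905, 0.929 and 0.929, and the adjusted exact permutation p of r at most 0.00121 and of rho at most 0.00947. The other 6 genes fell along the same level. Vim had r = -0.901 (exact permutation p = 0.00206, adjusted 0.00686) and rho = -0.881 (exact permutation p = 0.00724, adjusted 0.0121).

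Cdh26 and Cldn1, although far higher in MSI tumours, went with the mesenchymal genes there. Against the colon epithelium level Cdh26 had r = -0.849 (exact permutation p = 0.00699, adjusted 0.0148), rho = -0.857 (exact permutation p = 0.0107, adjusted 0.0164) and r = -0.850 without the 2 farthest libraries. Cldn1 had r = -0.808 (exact permutation p = 0.0152, adjusted 0.0275), rho = -0.976 (exact permutation p = 3.97e-04, adjusted 0.00273) and r = -0.772 without the 2 farthest. Between members, Cdh26 and Vim had r = 0.963 (exact permutation p = 2.48e-04, adjusted 0.00136) and rho = 0.952 (exact permutation p = 0.00114, adjusted 0.00448). Cdh1 and Cdh2 were opposed, at r = -0.785 (exact permutation p = 0.0193, adjusted 0.0316) and rho = -0.857 (exact permutation p = 0.0107, adjusted 0.0164).

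The replicate number moves with these relations. For 8 of the 10 genes, Cdh2 and Snai2 being the exceptions, the 4 MSI tumour libraries numbered 1 and the 4 numbered 2 did not overlap in CPM, as for 40.8% of all 18777 tested genes. In CIN tumours this held for 0 of 10, against 6.24% of the tested genes. The split by number in MSI tumours was thus wide over the whole table. Epcam, for example, was at 67.8 to 423 CPM in the libraries numbered 1 and at 749 to 1366 CPM in those numbered 2, and Cdh26 at 15.9 to 23.3 and 7.28 to 13.4 CPM. With 4 libraries a number the relations within a number were not computed, and the labels do not say what the number marks. Its part in the relations was not tested. The exact permutation p-values in MSI tumours ignore this split and may be too small.

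CIN tumours shared the epithelial relations but, by Pearson's r, only some of the others. Cdh1 followed the colon epithelium level at r = 0.994 (exact permutation p = 9.92e-05, adjusted 9.92e-04) and rho = 0.929 (exact permutation p = 0.00223, adjusted 0.00614). Epcam and Ocln both had r = 0.997 and Cldn4 had r = 0.986 (adjusted exact permutation p at most 0.00368), with rho from 0.952 to 1. Without the 2 libraries farthest from the median r was 0.948 for Cdh1 but 0.771 for Cldn4, so much of the Cldn4 relation rests on those libraries. Cdh26, with its few counts, had r = 0.029 (exact permutation p = 0.963, adjusted 0.963) and rho = 0.524 (exact permutation p = 0.197, adjusted 0.210), and Cldn1 had r = 0.584 (exact permutation p = 0.148, adjusted 0.181) and rho = 0.548 (exact permutation p = 0.171, adjusted 0.194). Without the 2 farthest libraries r was 0.784 for Cdh26 and 0.083 for Cldn1, so the value for Cdh26 depends strongly on those libraries.

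Of the mesenchymal genes in CIN tumours, Snai2 had r = -0.862 (exact permutation p = 0.00568, adjusted 0.0123) and rho = -0.786 (exact permutation p = 0.0279, adjusted 0.0370) against the colon epithelium level. Without the 2 farthest libraries r was -0.502, so the Snai2 relation rests on them. Zeb1 had r = -0.673 (exact permutation p = 0.0273, adjusted 0.0423) and rho = -0.881 (exact permutation p = 0.00724, adjusted 0.0121), and Vim r = -0.727 (exact permutation p = 0.0876, adjusted 0.116) and rho = -0.952 (exact permutation p = 0.00114, adjusted 0.00448). Cdh2 had r = -0.476 (exact permutation p = 0.218, adjusted 0.255) and rho = -0.786 (exact permutation p = 0.0279, adjusted 0.0370), so by rho each of these genes passed. Without the 2 farthest libraries r was -0.876 for Zeb1, -0.859 for Vim and -0.766 for Cdh2. When CIN tumour MSI micronuclei 1 was left out, an alternative chosen after seeing the data, 22 CIN relations passed, 12 of them among the 20 above. In that set Vim passed (r = -0.898, exact permutation over 7 libraries, adjusted p = 0.00686), as did Cdh2 (r = -0.843, adjusted p = 0.0421), while Zeb1 (r = -0.786, adjusted p = 0.0575) and Snai2 (r = -0.658, adjusted p = 0.131) did not. Cdh26, again with few counts, had r = 0.798 there (exact permutation, adjusted p = 0.0547) and rho = 0.821 (exact permutation, adjusted p = 0.0437). Whether a relation differed between the tumour types was not tested.

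**Figure D4:**
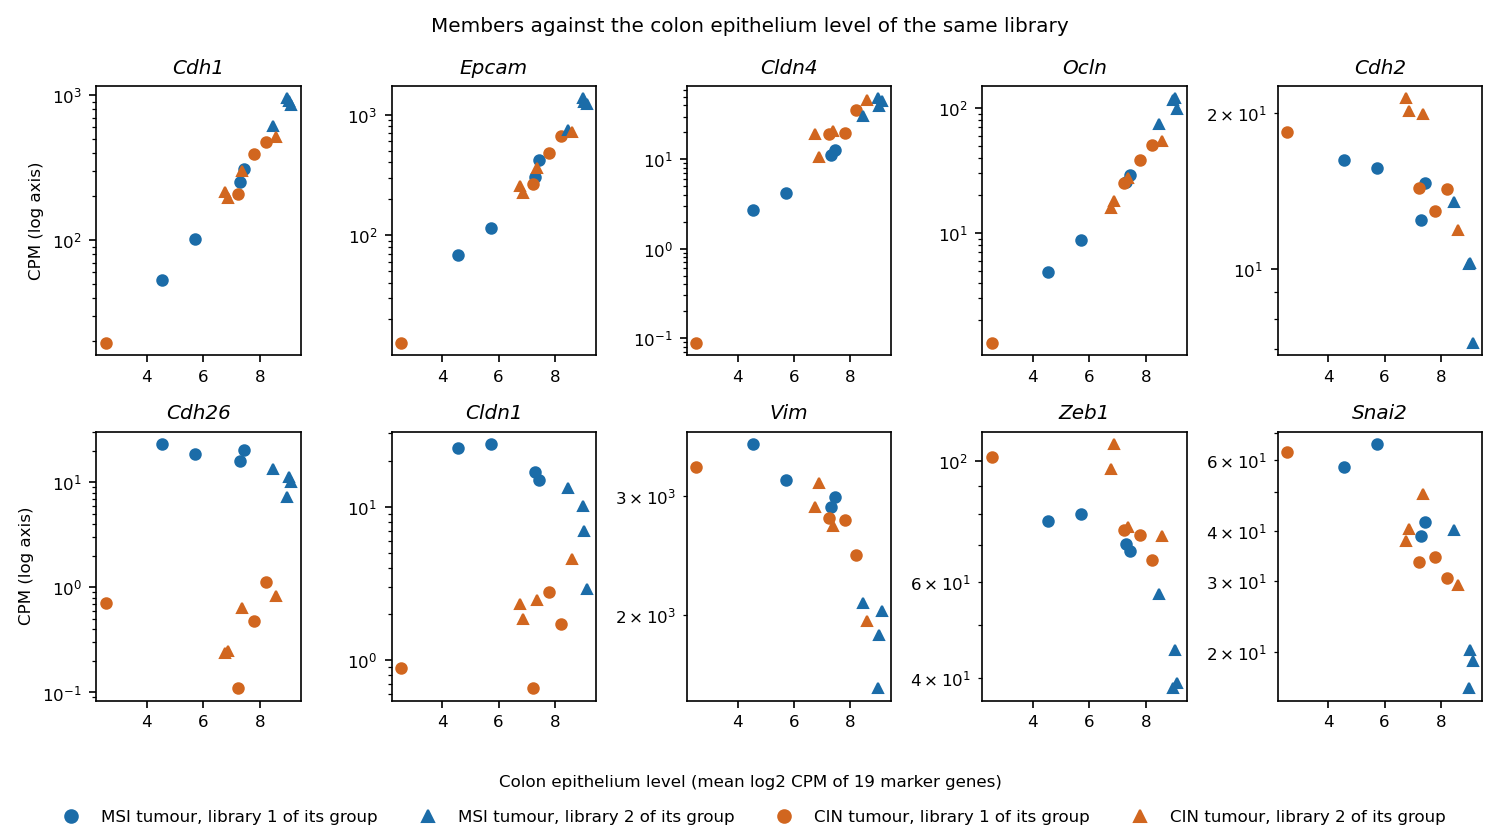
CPM of each gene (log axis) against the colon epithelium level (mean log2 CPM of 19 markers) of the same library; blue is MSI, orange CIN, circles number 1 and triangles number 2. Cdh1, Epcam, Cldn4 and Ocln climb in both tumour types, Vim and Zeb1 slope down, and for Cdh26 the MSI points lie apart above the CIN points at every level.

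Over all 16 libraries and 12954 genes, the genes most like each member by Pearson correlation of log2 CPM were as follows, as a description. For Cdh1 they were Dsg2 (0.998), Ms4a8a (0.997) and Krt8 (0.997), for Epcam Pip5k1b, Slc44a4 and Cldn7 (0.998 each), for Cldn4 Krt7 (0.993), Spaca4 and Fam174b (0.988 each), and for Ocln Hoxb13 (0.998), Sult1d1 and Krt8 (0.997 each). Cdh26 was most like Ppp1r2 (0.979), Atxn7l3b (0.973) and Rhox5 (0.969), and Cldn1 most like Kitl (0.932), Atxn7l3b and Thbs2 (0.928 each), so that Atxn7l3b stood in both lists. The leading genes for Cdh2, Vim, Zeb1 and Snai2 were Fbxo48 (0.966), Cdca4 (0.977), Wwtr1 (0.979) and Arl14ep (0.956). All these values share the 16 libraries, their differences in the colon epithelium level and the difference between the tumour types. That last difference is large for Cdh26 and Cldn1 and was known when they were picked, so nothing is read from their shared gene.

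The DNA comparisons, which the choice of genes did not use, asked whether the source or the form of the DNA given to the dendritic cells went with a difference in the tumours. None of the 10 genes passed in edgeR for either factor, over all libraries or within a tumour type, nor did any of the 18777 genes (background 0%). Unadjusted p-values under 0.05 were found for 0 of the 10 genes by edgeR and by DESeq2, and for 209 genes for source and 148 for form by edgeR (319 and 260 by DESeq2, which called 0 genes for either). Both interactions of tumour with DNA called 0 genes in edgeR, 285 (source) and 159 (form) being under 0.05 unadjusted and DESeq2 calling 1 gene, not a member, for source. Within MSI tumours the unadjusted edgeR counts were 151 for source and 126 for form, and within CIN tumours 315 and 153, with 1 gene, again not a member, called by DESeq2 for source in CIN tumours. Calibrated tests without any effect would put about a 0.05 share of the 18777 genes under 0.05. All these unadjusted counts are below that share, so the tests may be conservative. The lack of calls therefore does not show that effects are absent.

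Over all libraries the widest member effects were those of Cdh26. Its mean was 7.93 ± 8.15 CPM in tumours given MSI DNA and 7.61 ± 9.09 CPM in those given CIN DNA (SD, n = 8 each), a log2 fold change of 0.49 ± 0.37 (SE, 95% interval -0.32 to 1.29). With free DNA it had 7.19 ± 7.69 and with micronuclei 8.35 ± 9.45 CPM (SD, n = 8 each), a log2 fold change of -0.57 ± 0.37 (SE, 95% interval -1.38 to 0.24). The SDs are wide because both tumour types enter each group. Within CIN tumours, where it has 2 to 15 counts a library, the differences were 0.94 ± 0.58 for source and -0.94 ± 0.58 for form, and within MSI tumours 0.03 ± 0.46 and -0.20 ± 0.46 (log2 fold change ± SE). In MSI tumours Cldn1 had the widest effect for source (-0.27 ± 0.62) and Cdh2 for form (-0.26 ± 0.26).

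The intervals show how precisely the effects were estimated. For Vim the 95% interval of the log2 fold change was -0.41 to 0.44 for source and -0.41 to 0.45 for form, and for Zeb1 -0.40 to 0.50 and -0.42 to 0.48. For Cdh1 it was -1.72 to 1.43 for source and -1.52 to 1.63 for form, and for Cldn4 -2.09 to 1.60 and -1.73 to 1.95. The epithelial genes thus had wide intervals with this spread between libraries. These bounds are not limits of detection: the intervals are not adjusted for the number of genes tested, so a difference beyond them could also fail to pass. Within a tumour type the half-widths reached 2.62.

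**Figure D5:**
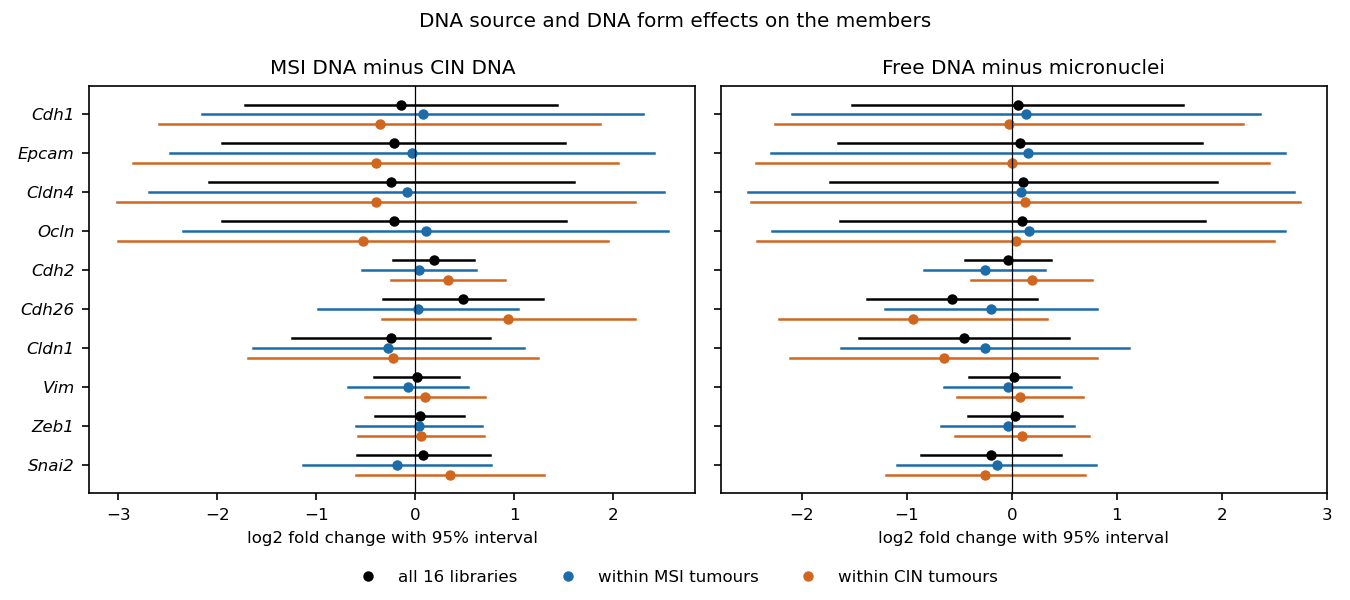
Log2 fold change with 95% interval for MSI minus CIN DNA (left) and free DNA minus micronuclei (right); black is all 16 libraries, blue within MSI tumours, orange within CIN tumours. Every interval crosses 0, and those of Cdh1, Epcam, Cldn4 and Ocln are the widest.

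The gene lists of this and the next paragraphs were, like the members, chosen with earlier results of these data known. Their adjusted p-values between the tumour types are therefore given as a description. Other cadherins were mostly low, and 8 of the 19 listed passed the filter. In the tumour comparison Cdh5, the cadherin of endothelium, was higher in MSI tumours (log2 fold change 0.88 ± 0.19, SE; edgeR, Benjamini-Hochberg adjusted p = 0.0232). Cdh19, a cadherin of the Schwann cell lineage, was lower, with means of 1.83 ± 1.65 CPM in MSI and 18.7 ± 4.7 CPM in CIN tumours (SD, n = 8 each) and a log2 fold change of -3.42 ± 0.70 (SE, edgeR adjusted p = 0.0212). Cdh13, which is held in the membrane by a lipid anchor, was lower as well (log2 fold change -1.13 ± 0.18 SE, edgeR adjusted p = 0.00562). Thus 1 of the 8 tested rose (against 2.32% of all tested genes) and 2 fell (against 3.48%), with a median of 0.10.

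Among 13 tested of 21 other claudins, Cldn12 was the 1 that passed, higher in MSI tumours (log2 fold change 0.47 ± 0.09 SE, edgeR adjusted p = 0.0133). The median of the claudin list was 0.51. Of all tested genes 5.80% passed, 2.32% as higher in MSI tumours, and nothing is read from the counts of this paragraph. No gene passed among 18 tight junction partners (median 0.60), 10 catenins and nectins (median 0.12), 10 tested desmosome genes (median 0.70) or 12 tested epithelial state regulators (median 0.94). Unadjusted edgeR p-values under 0.05 were found for 2, 1, 1 and 0 of them. The colon epithelium markers also had 0 of 19 past the threshold, 0 with an unadjusted p under 0.05 and a median of 0.96, with all 19 above 0.

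Among 12 tested EMT transcription factors other than Zeb1 and Snai2, Tcf4, a basic helix-loop-helix factor, was lower in MSI tumours (log2 fold change -0.48 ± 0.10 SE, edgeR adjusted p = 0.0258). It was the 1 that passed, against 3.48% of all tested genes as lower, and nothing is read from that count. The median of these factors was -0.44. Of 19 mesenchymal genes 5 were above 0 in log2 fold change, and the median was -0.26. Past the threshold 0 rose (against 2.32% of all tested genes) and 4 fell (against 3.48%) in MSI tumours. Among them were the collagen gene Col1a1 (-1.39 ± 0.12, edgeR adjusted p = 2.59e-04), the collagen cross-linking enzyme gene Loxl2 (-0.59 ± 0.14, adjusted p = 0.0397) and the integrin gene Itga5 (-0.36 ± 0.08, adjusted p = 0.0265), as log2 fold change ± SE. Over the 16 fits that each left out 1 library, Col1a1, Cdh13 and Cldn12 passed in all, Cdh5 in 10, Cdh19 in 8, Tcf4 in 7, Itga5 in 4 and Loxl2 in 2. No gene of any of these lists passed for DNA source or form.

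Some markers of other cell types moved with the tumour type beside Cdh26 and Cldn1. Of all tested genes 2.32% passed as higher and 3.48% as lower in MSI tumours. Mast cell markers had 4 of 7 tested higher in MSI tumours, with a summed level of 20.8 to 73.6 CPM against 2.74 to 42.2 CPM, and 7 of the 8 listed were at 0 in at least 1 library. Endothelial markers had 4 of 8 higher (100.1 to 146 against 63.8 to 127 CPM, none at 0 in any library). All 8 had an unadjusted edgeR p under 0.05, but only 7 of them were above 0 in log2 fold change. Of 5 mesothelium markers only Msln was above 0 in log2 fold change, and it passed, while the list's median was -1.07. The sum of the list, 47.6 to 267 CPM in MSI and 29.5 to 44.6 CPM in CIN tumours, is nearly all Msln: the other 4, each at 0 in at least 1 library, summed to 0.124 to 5.27 CPM in MSI and 0.354 to 8.16 CPM in CIN tumours. Stratified epithelium markers had 2 of 7 tested lower (Krt14 and Krt13), with a sum of 13.6 to 34.7 against 51.7 to 124 CPM, and Krt5 and Trp63 were at 0 in 7 and 8 libraries. That sum is mostly Krt14, whose median was 13.0 CPM in MSI and 65.9 CPM in CIN tumours, against median sums of 22.2 and 77.8 CPM. The part of these cell type markers in the differences of Cdh26 and Cldn1 was not tested.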

How the data were processed

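Poly-A selected RNA of 16 tumour libraries was sequenced. The authors deposited raw counts per gene and FPKM values, which divide the counts by gene length and library total. The tools named are fastp, HISAT2 2.0.5 and featureCounts 1.5.0-p3 with GRCm39, per the submitters' processing notes. However, of 54409 identifiers also in GENCODE M21, 53499 had its GRCm38 coordinates, so GRCm38 is given. The 4 columns of counts that matched no sample were not used, and all counts belonged to named genes.

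Groups came from the titles. The counts were fitted with edgeR 4.0.16 in R 4.3.3 (TMM scaling, filterByExpr by group, 1 mean per group, robust quasi-likelihood, Benjamini-Hochberg adjustment at 0.05). DESeq2 1.42.0 was an alternative. The biological coefficient of variation was 0.43, so precision was limited by the spread between libraries. Interactions are halved differences of effects. Levels are CPM with TMM factors, and log2 CPM uses a prior count of 2. Correlations used exact permutation of pairings. The fit was tested on simulated data. In MSI tumours libraries of the same number deviated together in all 6 pairs of groups (r 0.40 to 0.80), so a fit with a replicate term for each tumour type was added. Paired libraries of each group differed beyond counting noise (chi-square per degree of freedom 20.1 to 222). Promoters are from RefSeq (GRCm38.p6).

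The members, the 20 gene lists (237 entries, 237 matched by symbol) and the tests were chosen with earlier results of these data known. Named genes are all members, the up to 3 called genes per pathway list that changed most, among those whose log2 CPM averaged 1 or more, and 3 protein-coding genes per member of highest correlation. Itga5 falls outside this rule and was named after its values were seen. A further gene that the rule names is not reported here. Only the first of the 3 is printed for Cdh2, Vim, Zeb1 and Snai2. Msln, Krt14, Krt13, Krt5, Trp63 and Cdx2 were also named after their values were seen.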

Additional observations from a re-analysis of the deposited data

Results flagged for a closer look

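Within CIN tumours, the library CIN tumour MSI micronuclei 1 stood apart from the other 7 in 4 of the 10 genes, all epithelial. Its distance to the nearest other library, divided by the whole range of the 8 libraries in log2 CPM, was 0.703 for Cdh1, 0.723 for Cldn4, 0.66 for Ocln and 0.71 for Epcam, above the 95% critical value of Dixon's test for 8 values. It had 19.6 CPM for Cdh1 against 194 to 512 CPM in the other CIN libraries, and 12.7 against 224 to 720.1 CPM for Epcam. For Ocln it had 1.33 against 15.8 to 54.4 CPM, and for Cldn4, with its 1 count, 0.0885 against 10.5 to 46.3 CPM. The same library had the lowest colon epithelium level (2.54) and was among the 5 rich in skeletal muscle transcripts, and the part of either was not tested. The test was run on 20 groups, 10 genes in each tumour type, and chance gives about 1 in 20. The 4 results are not independent, since these genes moved together.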

How the results depend on the processing

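The number of genes past the threshold between the tumour types, 1089, was 2157 with DESeq2, 1778 in the fit blocked by replicate number, 3428 with a block of that kind within each tumour type (added after seeing the data), 1950 in the additive model, 135 in that model without the 5 libraries rich in muscle transcripts and 3360 in it with the colon epithelium level. It ran from 477 to 1758 when each library was left out in turn, in fits that repeat the filter, and moved by over 1.5 times for all but 3 MSI tumours (CIN free 1, MSI free 1 and CIN micronuclei 2) and 2 CIN tumours (MSI free 1 and MSI micronuclei 1). The cause was not tested. The count of the 10 genes past the threshold was 2 in every such fit, 1 without the 5 libraries, and 3 with the colon epithelium level and with the block within tumour type, and nothing is read from it. Over the 24 other settings the log2 fold change was 4.31 to 5.31 for Cdh26 and 2.27 to 3.06 for Cldn1, and those of Cldn4, Snai2 and Vim changed sign. In the DNA comparisons no member passed under any setting. There, the difference of Cdh26 between free DNA and micronuclei reversed to 0.024 without the 5 libraries, and that of Cldn1 between MSI and CIN DNA ran from -0.47 to 0.33 when each library was left out, reversed without the MSI tumour library CIN free 1. Without the 5 libraries Cdh5, Cdh13, Cdh19, Cldn12, Tcf4, Loxl2 and Itga5 no longer passed, while Col1a1 did. With no filter on low counts Cdh19 and Itga5 did not pass, and with DESeq2's size factors the relation of Zeb1 with the colon epithelium level in CIN tumours did not (r = -0.645, exact permutation, adjusted p = 0.0674). Replicate numbers were checked as a possible pairing. The correlation of deviations was over 0.1 in all 6 pairs of MSI tumour groups (0.40 to 0.80), in 2 of 6 pairs of CIN tumour groups (-0.33 to 0.38) and in 16 of all 28 (lowest -0.54). MSI tumour libraries of 1 number thus deviated together, and the labels do not say what they share. With the replicate block Cdh26 was at 4.88 and Cldn1 at 2.74, and with the block within tumour type at 4.88 and 2.77, and either block called 0 genes in the DNA comparisons, within MSI tumours included. Depth limits Cdh26 in CIN tumours (60 counts) and Cldn4 in CIN tumour MSI micronuclei 1 (1 count).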
